A study of Saccharomyces cerevisiae with 8 samples.

Results

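The genes described here are 59 genes of DNA replication and the cell cycle in budding yeast (Saccharomyces cerevisiae), out of 3127 genes that carried a single symbol on the array. They were picked by the root of the gene symbol (MCM, ORC, CDC, POL, PRI, RFC, RFA, CLN, CLB, PCL or SMC followed by a number) and not by any measured value. They lay on 65 features, since 6 genes had 2 features each. A root is not a function: 8 of the 59, among them the pyruvate kinase gene CDC19 and the leucyl-tRNA synthetase gene CDC60, are known mainly for other work and are kept apart below.

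Each slide set RNA of yap1d cells, which lack the transcription factor Yap1, against RNA of wild type (WT) of the same laboratory strain background. One background was BY4741, of mating type a, and the other BY4742, its partner of mating type alpha; both are auxotrophic relatives of the reference strain. Cultures of both genotypes reached an optical density of 0.5 in rich medium (YPD) before 2 h in 200 mM hydroxyurea, so no value here compares drug with no drug. Slides 19 and 20 held BY4741 and slides 21 and 22 held BY4742. Cells lacking YAP1 supplied channel 1 on slides 19 and 21 and channel 2 on slides 20 and 22, and each slide was deposited as a fort and a faible column, 8 columns in all, taken as 2 scans of the slide. The deposited ratio did not say which channel is on top: its direction was set so that TRX2 and TRR1, known Yap1 targets, were lower in yap1d, and it is therefore only likely. Were the opposite true, all signs given here would be inverted. Whether the slides of 1 background held RNA of different cultures is not given in the labels. The level of YAP1 was not analysed here, which leaves the deletion unchecked. Every value is a ratio within a slide, so the mating type and auxotrophies of the strains could not be read as levels.

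Hydroxyurea inhibits ribonucleotide reductase, the enzyme that makes deoxyribonucleotides, and slows replication forks until the S phase checkpoint holds the cells with replicating DNA. In a normal cycle the origin recognition complex marks origins, Cdc6 helps to load the MCM helicase there, and the S phase kinases then start the polymerases. Many of the genes involved are transcribed in waves: G1 cyclins and replication enzymes under the factors SBF and MBF at the start of the cycle, mitotic cyclins later. In bulk RNA, as here, fewer cells in a phase and less RNA per cell cannot be told apart.

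Most members differed little between yap1d and WT. One member passed the test: CDC26, a small subunit of the anaphase-promoting complex (APC), the ubiquitin ligase that starts anaphase, was lower in yap1d at -0.51 ± 0.395 (log2 ratio of yap1d over WT, mean ± SD over the 2 backgrounds, n = 2 here and below), a 1.43-fold fall (limma, Benjamini-Hochberg adjusted p = 0.000269 over all 6695 units). The call was lost in a fit of the 4 slides with a channel term (adjusted p = 0.076 with limma) and after quantile normalization (0.564), and in limma fits of 3 slides without slide 19 (0.767), slide 20 (0.0554) or slide 21 (0.512). By background means, that is 1 of 59 members lower (1.69%) and none higher, against 1.21% lower and 0.538% higher over all units, so the share of called members was near that of the array. The B-type cyclin gene CLB1 (-0.30 ± 0.121) and the thymidylate kinase gene CDC8 (0.25 ± 0.114) had the next lowest and the highest mean but did not pass (adjusted p = 0.17 and 0.403 with limma). Unadjusted p-values of limma were under 0.05 for 2 members lower and 1 higher, where 3.53% and 3.97% of all units reached that in the same directions.

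Across the members the median log2 ratio was -0.02, with 0.01 in BY4741 and -0.03 in BY4742, beside 0.0044 over all units. Of the 59, 38 lay below 0 and 21 above, or 64.4% below 0 against 54.4% of all named genes and 48.3% of all units. The place of 0 in this split moved with the centring, which shifts all units alike. With the values as deposited the members' median was 0.035 and that of all units 0.06, and 16 members changed sign. The spread of the means over members (SD 0.112) was beside one of 0.154 over all named genes. Of the members, 55 had a mean within 0.15 of 0 in either direction (93.2%), against 81.7% of named genes. Every mean had the same standard error of 0.108 in limma, which set 1 common SD for all units. An interval of 95% thus reached 0.21 to either side of every mean, or 1.16-fold, whatever the spread of the gene itself. It lay within 0.5 of 0 for 57 of the 59 members, all but CDC26 and CLB1, and for 6451 of the 6695 units. It is not the precision of a single gene. For MCM7 it ran from -0.35 to 0.08 and left out both background values, 0.185 in BY4741 and -0.459 in BY4742.

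**Figure D1:**
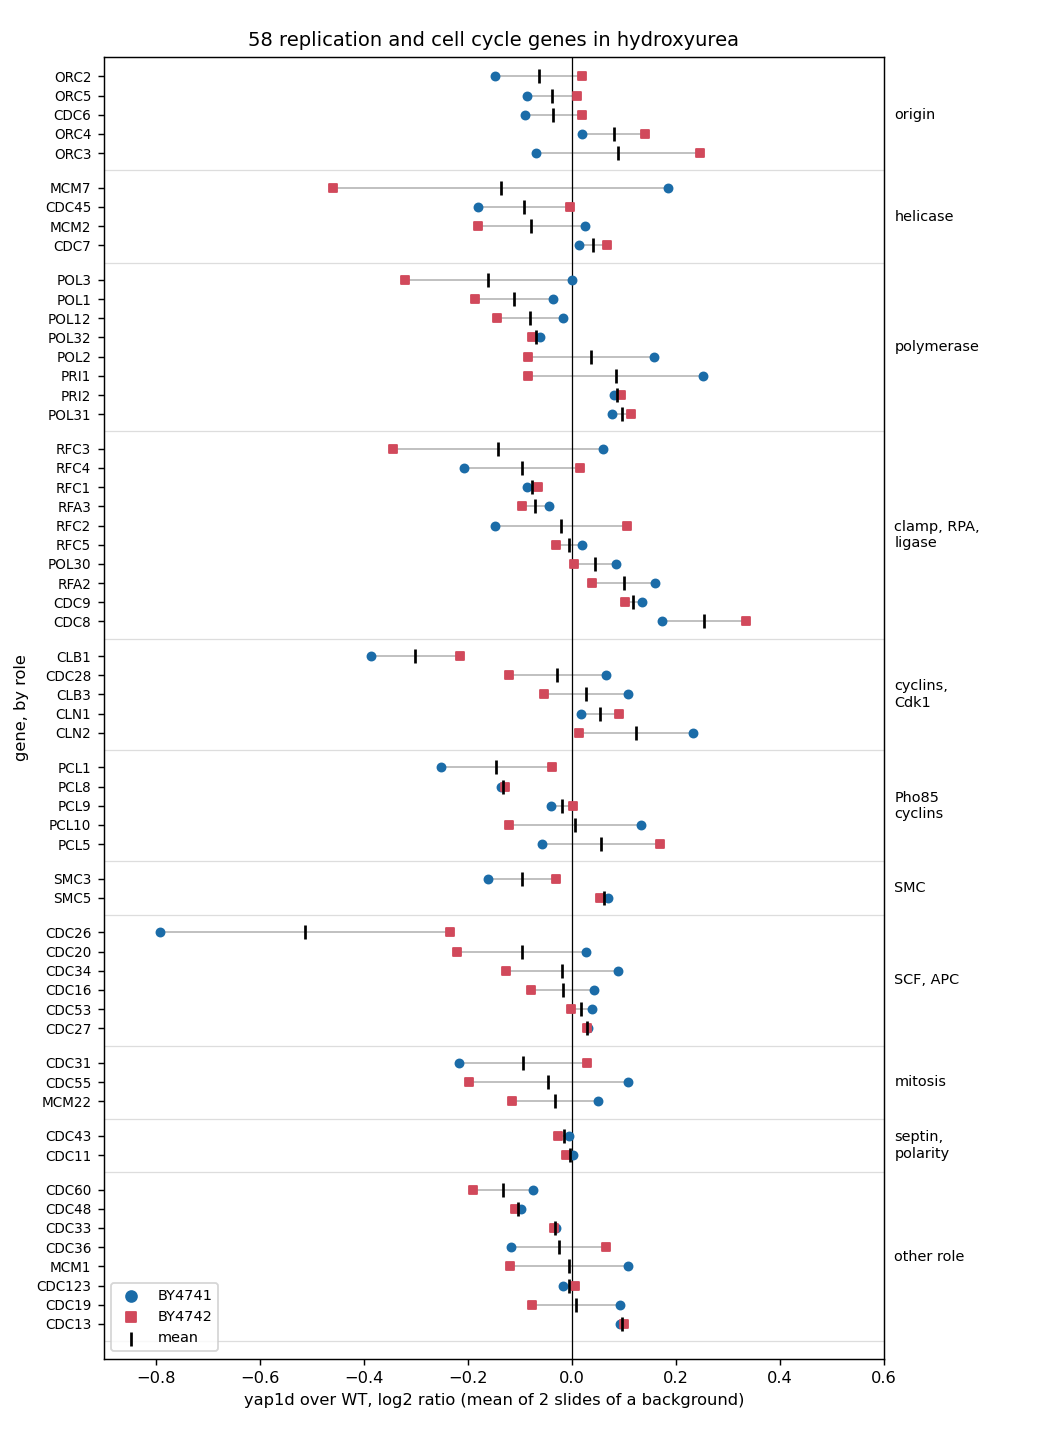
Log2 ratio of yap1d over WT for 58 of the 59 genes, grouped by role on the right. Blue circles are BY4741, red squares BY4742 (each the mean of 2 slides) and black bars the mean of both; CDC26 lies farthest left at -0.51 and CDC8 farthest right at 0.25.

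Across these genes the ratios of the 2 backgrounds went together only weakly. In 29 members (49.2%) the ratio had the same sign in BY4741 and BY4742, beside 49.8% of all units; 16 were below 0 in both and 13 above in both. The correlation over the 59 genes was r = 0.108, against 0.323 over all named genes. These are descriptions across genes, which are not independent replicates, and the slides behind them share their channels.

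**Figure D2:**
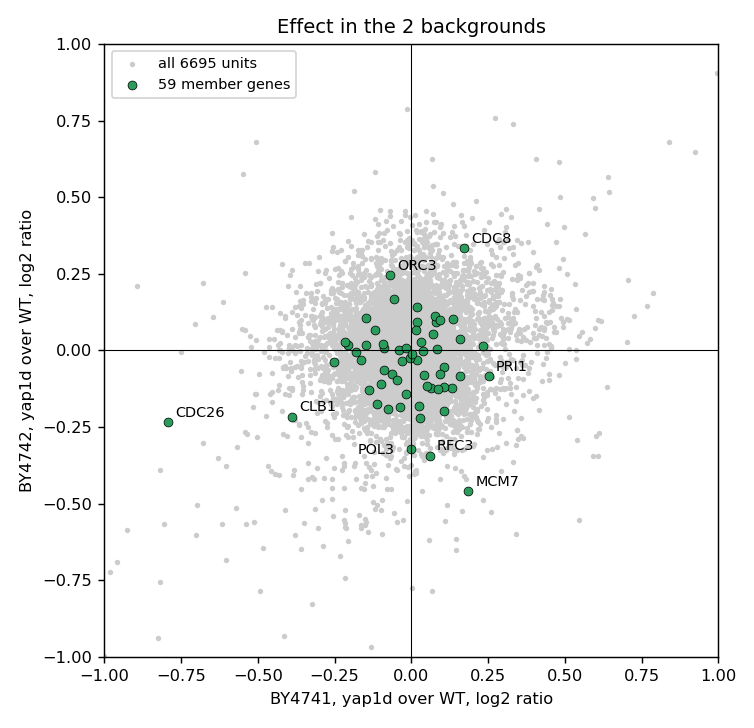
Log2 ratio in BY4741 (x axis) against BY4742 (y axis), with all units in grey and the 59 genes in green. The green points form a cloud around 0 without a slope (r = 0.108), with CDC26 and CLB1 low in both and MCM7 low in BY4742; 24 units outside the axes are not drawn.

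Ratios on single slides depended strongly on the channel. The channel effect of a gene is given as the difference between slides with yap1d in channel 2 and slides with it in channel 1, divided by 2. It passed an adjusted p of 0.05 with limma in 32 of 59 members (54.2%) and in 67.5% of all units, which include features without a single symbol. Among the 3127 named genes it passed in 1963. Its median size in the members was 0.22, against 0.07 for the effect of yap1d. Averaging the orientations removes it only as far as it was equal on both slides of a background. The SD over the 2 backgrounds is taken after this averaging and does not show the spread between slides. PCL8, with an SD of 0.0062, read 0.315 and -0.59 in BY4741 and 0.46 and -0.72 in BY4742. Members with a more negative channel effect also tended to have a lower mean (r = 0.479 across the 59 genes, against 0.321 over all units). Both genes with the lowest means, CDC26 (channel effect -0.66) and CLB1 (-0.48), had strongly negative channel effects, whose part in their low means was not tested. Only CDC8 and CDC9 had the same sign on all 4 slides, 2 of 59 members or 3.39%, beside 3.87% of all units.

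**Figure D3:**
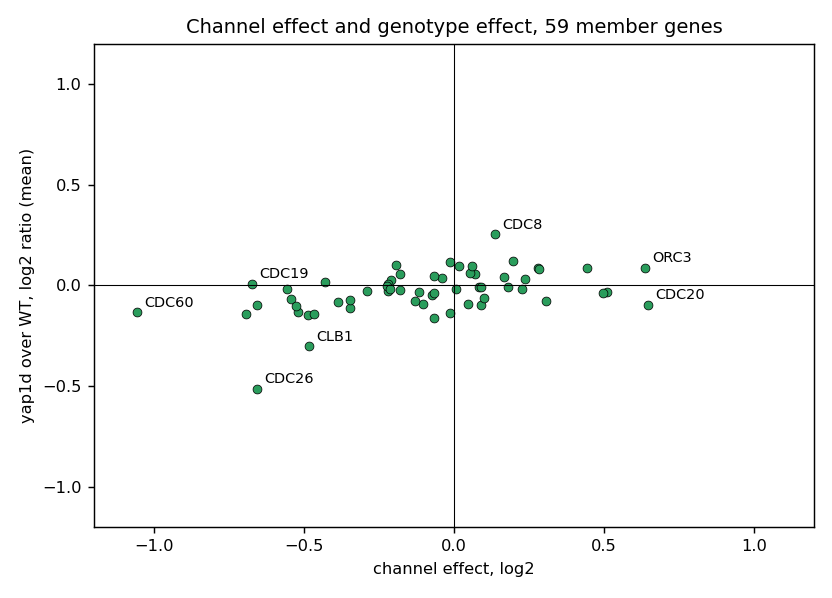
Channel effect (x axis) against the mean log2 ratio of yap1d over WT (y axis) for the 59 genes, on equal scales. The points spread from -1.06 to 0.65 along x but mostly within 0.15 of 0 along y, and CDC26 and CLB1 lie low on the side of negative channel effects.

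At the origins, 4 of the 6 subunits of the origin recognition complex were measured. ORC2 had the lowest mean of them (-0.06 ± 0.118) and ORC3 the highest (0.09 ± 0.224). ORC3 read -0.67 and 0.53 in BY4741 and -0.43 and 0.92 in BY4742, so its sign followed the channel on all 4 slides. ORC4 (0.08 ± 0.0857) and ORC5 (-0.04 ± 0.0681) lay between them, and CDC6, whose product loads the helicase, was at -0.04 ± 0.0787, with 2 features that differed by 0.01. No gene of this group passed, and the mean of each lay within 0.09 of 0.

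Of the MCM helicase, MCM2 and MCM7 were measured. MCM7 read 0.07 and 0.30 in BY4741 and -0.32 and -0.60 in BY4742. It was thus above 0 on both slides of BY4741 and below 0 on both of BY4742, and the slides of the backgrounds did not overlap. Its difference between the backgrounds was -0.64 ± 0.157 (BY4742 minus BY4741, SE, 4 slides), the largest of any member, with a mean over both of -0.14 ± 0.455. It did not pass the test of that difference (limma, adjusted p = 0.301, unadjusted p = 0.00304). With the faible columns alone it did (-0.57 ± 0.143, SE, adjusted p = 0.00789 with limma), where 177 units, or 2.64%, passed. CDC26 had the same SE in that fit, so the p-value follows the size of the difference and not the spread of MCM7. MCM7 did not pass with the fort columns alone (-0.715, adjusted p = 0.681 with limma) or as deposited (-0.61, adjusted p = 0.116 with limma). MCM2 read -0.39 and 0.44 in BY4741 and -0.38 and 0.01 in BY4742, with a mean of -0.08 ± 0.146. Its sign was that of the channel on all 4 slides, with the slide of yap1d in channel 2 close to 0 in BY4742. CDC45, which joins the helicase as forks start, was at -0.09 ± 0.12, and CDC7, the kinase that activates loaded MCM and holds 2 features, was at 0.04 ± 0.038. None of the 4 passed the comparison of yap1d with WT.

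All 4 subunits of polymerase alpha and primase, which lays down the first RNA and DNA of each fragment, were measured. The catalytic subunit gene POL1 was at -0.11 ± 0.105 and the B subunit gene POL12 at -0.08 ± 0.0893. The primase genes PRI1 (0.08 ± 0.238) and PRI2 (0.09 ± 0.0097) lay on the other side of 0. Despite its small SD over backgrounds, PRI2 read -0.355 and 0.515 in BY4741 and -0.03 and 0.22 in BY4742. PRI1 went opposite ways in the backgrounds, at 0.25 in BY4741 and -0.08 in BY4742.

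For the polymerases that extend the strands, POL3, the catalytic subunit of polymerase delta, had the lowest mean of the group at -0.16 ± 0.227. It read 0.04 and -0.04 in BY4741 and -0.23 and -0.41 in BY4742, so it was near 0 on both slides of BY4741 and below 0 on both slides of BY4742, and it did not pass (adjusted p = 0.913 with limma). The smaller delta subunit genes lay at 0.10 ± 0.0256 (POL31, the highest of the group) and -0.07 ± 0.0097 (POL32). POL31 read 0.28 and -0.13 in BY4741 and -0.13 and 0.35 in BY4742, which overlap between backgrounds. POL2, the catalytic subunit of polymerase epsilon, was at 0.04 ± 0.171. None of these 8 polymerase and primase genes passed, and 4 lay on each side of 0.

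The clamp PCNA is encoded by POL30, whose mean was 0.04 ± 0.0575 with 2 features 0.04 apart. Its loader was measured in full. All 5 loader genes were below 0: RFC1 (-0.08 ± 0.0159), RFC2 (-0.02 ± 0.179), RFC3 (-0.14 ± 0.285), RFC4 (-0.10 ± 0.158) and RFC5 (-0.0056 ± 0.0362). None passed, and only RFC1 was below 0 in both backgrounds. RFC3, the lowest, read 0.57 and -0.46 in BY4741 and 0.08 and -0.77 in BY4742, and its difference between the backgrounds (-0.40 ± 0.134, SE) was the third largest of the members without passing (limma, adjusted p = 0.341). The single-strand binding protein RPA was represented by RFA2 (0.10 ± 0.0857) and RFA3 (-0.07 ± 0.0362). RFA2 read 0.28 and 0.04 in BY4741 and 0.31 and -0.23 in BY4742, above 0 on all slides but the last. With the median of each run of features in file order (standing in for print blocks) removed, its mean was -0.10.

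The DNA ligase gene CDC9 read 0.20 and 0.07 in BY4741 and 0.07 and 0.14 in BY4742, all above 0, with a mean of 0.12 ± 0.0239. Its 2 features differed by 0.108, about as much as the mean itself, and it did not pass (adjusted p = 0.994 with limma). CDC8, whose product phosphorylates dTMP on the way to dTTP, read 0.12 and 0.23 in BY4741 and 0.11 and 0.56 in BY4742. All 4 slides were above 0, slide 22 highest, and the 95% interval of its mean was 0.04 to 0.47, but its adjusted p was 0.403 with limma in the comparison of backgrounds and 0.309 in the fit of 4 slides. The median of each run of features in file order (standing in for print blocks) was also removed from each column. The mean of CDC8 was then 0.0425 and that of CDC9 0.0391.

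**Figure D4:**
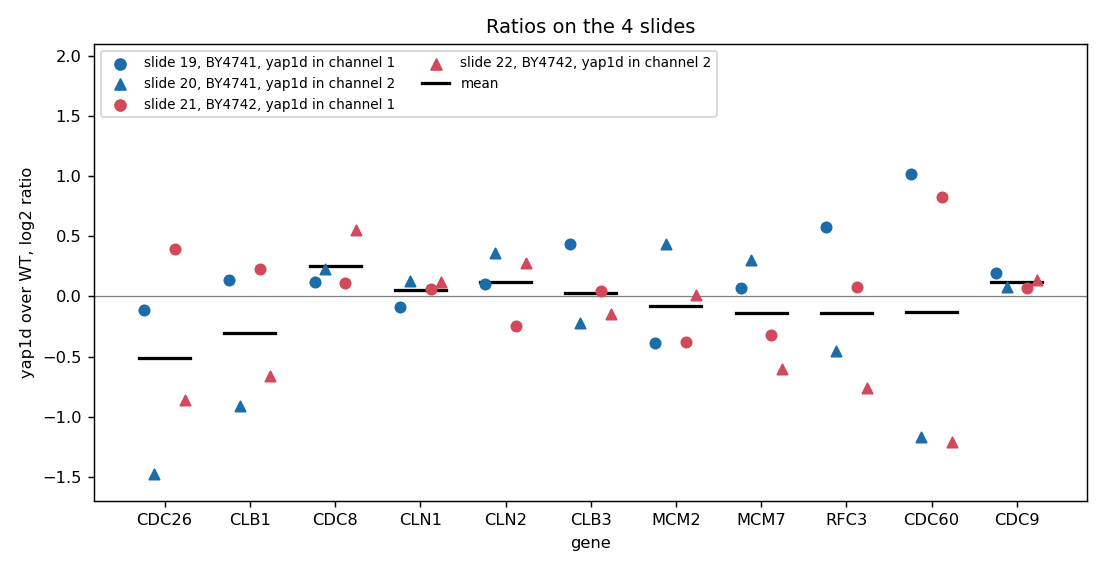
Log2 ratio of yap1d over WT on each of the 4 slides for 11 of the genes. Colours give the background, circles the slides with yap1d in channel 1, triangles those with it in channel 2, and bars the mean. Circles and triangles separate widely for CDC26, CLB1, RFC3 and CDC60. All slides of CDC8 and CDC9 lie above 0.

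Among the cyclins, the G1 cyclin genes CLN1 and CLN2, which drive entry into the cycle, were both slightly above 0. CLN1 read -0.09 and 0.12 in BY4741 and 0.06 and 0.12 in BY4742, with a mean of 0.05 ± 0.0521. CLN2 read 0.10 and 0.36 in BY4741 and -0.25 and 0.28 in BY4742, with a mean of 0.12 ± 0.155. The slides of both genes lay on both sides of 0. The B-type cyclin genes CLB1 and CLB3, whose products bind Cdk1 in G2 and mitosis, had the same sign as each other on each slide, and neither passed. CLB1 read 0.14 and -0.91 in BY4741 and 0.23 and -0.66 in BY4742, and CLB3 read 0.43 and -0.22 in BY4741 and 0.04 and -0.15 in BY4742 with a mean of 0.03 ± 0.114. CLB1 was lower in yap1d in both backgrounds once the channels were averaged, but above 0 on both slides with yap1d in channel 1. It did not pass either fit (limma, adjusted p = 0.17 over backgrounds and 0.164 over 4 slides). CDC28, the gene of Cdk1 itself, was at -0.03 ± 0.132.

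Pho85 cyclins bind the kinase Pho85 and act in nutrient signalling and, for some, at the start of the cycle. PCL1, which is transcribed with the G1 cyclins, was the lowest of the 5 measured at -0.15 ± 0.151 and read 0.23 and -0.73 in BY4741 and 0.46 and -0.54 in BY4742. PCL5, whose product promotes the breakdown of the amino acid regulator Gcn4, was the highest at 0.06 ± 0.16. PCL8 (-0.13 ± 0.0062), PCL9 (-0.02 ± 0.0292) and PCL10 (0.0056 ± 0.179) completed the group. None passed, while the channel effect passed in 4 of the 5, beside 67.5% of all units.

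Of the SMC proteins, which hold or fold chromosomes, the cohesin gene SMC3 was at -0.10 ± 0.0928 and SMC5, of the complex that acts in repair, at 0.06 ± 0.0115. SMC3 had a channel effect of -0.66 and opposite signs on the slides of each background. SMC5 was above 0 in both backgrounds and had its lowest slide at -0.03.

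In the ubiquitin ligases of the cycle, CDC26 stood apart from the other subunits of the APC. It read -0.11 and -1.48 in BY4741 and 0.40 and -0.86 in BY4742, and the value of slide 20 was the lowest of any of the 59 genes on any slide. Its background values were -0.79 in BY4741 and -0.23 in BY4742, both below 0. They differed by 0.56 ± 0.131 (BY4742 minus BY4741, SE, limma adjusted p = 0.301). That difference passed with the faible columns alone (adjusted p = 0.0123 with limma). Its SE there was that of MCM7 (0.143), so the p-value follows the size of the difference and not the spread of CDC26. With the fort columns alone (0.681) or as deposited (0.127) the difference did not pass. Both slides with yap1d in channel 2 were low, while those with yap1d in channel 1 were near or above 0. In the fit of 4 slides with a channel term no member passed with limma, where 1.09% of all units passed. In that fit the unadjusted p of limma was under 0.05 for 3 members, CDC26, CLB1 and CDC8 (5.08%), against 9.62% of all units. The mean of CDC26 was -0.39, -0.36 and -0.64 without slide 19, 20 or 21, and -0.67 without slide 22, where it passed (adjusted p = 1.09e-06 with limma).

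The APC genes CDC16 (-0.02 ± 0.0857) and CDC27 (0.03 ± 0.0009), which encode its scaffold subunits, did not pass, and neither did its activator gene CDC20 (-0.10 ± 0.176). CDC20 had the highest positive channel effect of the members (0.65). In the ligase SCF, which removes G1 cyclins and the Cdk1 inhibitor Sic1, the ubiquitin-conjugating enzyme gene CDC34 was at -0.02 ± 0.151 and the cullin gene CDC53 at 0.02 ± 0.0274. All 6 genes of these ligases had a channel effect that passed, beside 67.5% of all units.

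Mitosis was represented by the centrin gene CDC31 (-0.09 ± 0.174), the phosphatase subunit gene CDC55 (-0.05 ± 0.217) and the kinetochore gene MCM22 (-0.03 ± 0.118). CDC31 was below 0 in BY4741 and near 0 in BY4742. CDC55 was above 0 on both BY4741 slides and below 0 on both BY4742 slides. Of the septin and polarity group 2 of 3 measured genes are given: the septin gene CDC11 (-0.0044 ± 0.0097) and CDC43 (-0.02 ± 0.015), which encodes a subunit of a protein prenyltransferase, lay near 0. CDC11 read 0.14 and -0.14 in BY4741 and 0.29 and -0.32 in BY4742, with a sign that followed the channel on all 4 slides. None of these 5 genes passed.

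The 8 genes known mainly for other work ranged from CDC60 (-0.13 ± 0.0822) to the telomere protein gene CDC13 (0.10 ± 0.0053). CDC60 read 1.02 and -1.17 in BY4741 and 0.83 and -1.21 in BY4742 and had the largest channel effect of all members (-1.06). CDC13 held 2 features 0.104 apart and was close to 0.10 in both backgrounds. The chaperone ATPase gene CDC48 (-0.10 ± 0.008), the translation factor gene CDC33 (-0.03 ± 0.0027), CDC36 of the CCR4-NOT complex (-0.03 ± 0.13), the transcription factor gene MCM1 (-0.0056 ± 0.16) and CDC123 (-0.0056 ± 0.0168) lay between them. CDC19 was at 0.0081 ± 0.119, but its scans disagreed by 0.75 to 1.14 on every slide, the most of any member. The deposited fort ratio of CDC19 was 0 on slide 20 and at most 0.19 on the others, against 0.71 to 1.06 in the faible columns, so its value is uncertain. The other members differed between scans by a median of 0.06 to 0.08 per slide.

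Members were also grouped by the time of transcription in the cycle. Of 19 measured G1 and S phase genes of SBF and MBF, 10 lay below 0 and 9 above, with a median of -0.0056 and none passing. The 2 mitotic genes, CLB1 and CDC20, had a median of -0.20, and neither passed. The 4 genes of late mitosis and G1 (MCM2, MCM7, CDC6 and PCL9) all had means below 0, with a median of -0.06, but none passed and none had the same sign in both backgrounds. Over all members no difference between the backgrounds passed with limma, as over all units (0%). Unadjusted p-values of limma for that difference were under 0.05 for 7 members (CDC26, CDC55, MCM7, ORC3, POL3, PRI1 and RFC3), or 11.9%, beside 11.5% of all units. The slides of the 2 backgrounds did not overlap for 6 members (CDC31, CDC55, MCM7, POL2, POL3 and RFC4), or 10.2%, beside 10.3% of all units.

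Most other genes of the same processes, whose names do not carry the roots, were near 0 as well. Of 17 measured genes of the replication fork none passed, with a median of 0.01, from the histone chaperone gene ASF1 (-0.09 ± 0.0504) to PSF1 (0.31 ± 0.165), a subunit of the GINS complex that travels with the helicase. PSF1 read -0.17 and 0.56 in BY4741 and -0.16 and 1.02 in BY4742 and had an adjusted p of 0.142 with limma. Of 26 measured genes of cell cycle control 1 passed, beside 1.21% of all units lower and 0.538% higher. FAR1, an inhibitor of Cdk1 in the mating response, was lower in yap1d (-0.37 ± 0.296, limma adjusted p = 0.0369). Its background values were -0.16 in BY4741 and -0.58 in BY4742. Their SD lay above the common SD of 0.153 on which that p-value rests. FAR1 read -0.08 and -0.245 in BY4741 and -0.27 and -0.89 in BY4742, below 0 on all 4 slides. Over all units, 3.87% had the same sign on all 4 slides. FAR1 did not pass the fit of 4 slides (adjusted p = 0.188), and the other 25 did not pass, the highest being the Cdk1 inhibitory kinase gene SWE1 (0.17 ± 0.139). Histone genes, which are transcribed in S phase, did not pass: HTA2 (0.20 ± 0.141), HTB1 (-0.03 ± 0.123), HTB2 (0.04 ± 0.0027) and the variant gene HTZ1 (0.09 ± 0.061). The subunit genes of the drug's target, RNR2 (0.08 ± 0.201) and RNR4 (-0.02 ± 0.128), did not pass either.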

How the data were processed

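The deposited values, 1 log ratio per feature and column, were read as log2; the labels give no base, and another base would rescale all values alike. Background correction and normalization are not given in the sources used here, and column medians ran from -0.28 to 0.04. The number of arrays limits the precision. Of 6912 features, 3344 had 1 symbol in the array annotation (3343 matched the R64 gene table), 387 had several and 3181 none. Features of a gene were averaged, giving 6695 units. Columns were centred on their medians, scans averaged, ratios turned to yap1d over WT, and slides averaged per background. Intercepts were fitted with lmFit and eBayes (limma 3.58.1, R 4.3.3), two-sided, Benjamini-Hochberg over all units, threshold 0.05. The spread of single units was fully replaced by 1 common SD (infinite prior degrees of freedom), on which all p-values of that fit rest. Background difference and channel effect were fitted on the 4 slides, taken as replicates, with a channel term. The fit of the difference had 1 residual degree of freedom. Separate cultures are not given, so it cannot tell a difference between backgrounds from one between single cultures. With 1 common SD, a p-value in the fit of background means follows the size of the mean and not the spread of the gene between backgrounds. For CDC26 the SD over backgrounds was 0.395, against a common SD of 0.153. In the main fits of 4 slides, p-values measure the spread between slides, drawn towards a common value. The spread between backgrounds and that between slides may both be technical in part. For the difference between backgrounds, CDC26 and MCM7 had the same SE with the faible columns alone (0.143) and as deposited (0.186). Those fits thus also used 1 common SD, and their p-values follow the size of the difference and not the spread of the gene. Fits were also run on simulated data with known changes. Noise there was the same for every unit, so that run could not test the use of 1 common SD.

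Members, gene lists and settings were chosen with earlier results of these data known. Named were members that passed, the 6 highest and 6 lowest means, the extremes of each role, the 3 largest background differences and channel effects, the CLN, CLB and MCM helicase genes, and for the other lists the extremes or any that passed (all measured histone and RNR genes are given); further members are given for completeness, and the own values of 1 member that falls under this rule are not reported here. Genome positions are left out, since the sources used here name no build. A planned search of promoters was not run, and sequences were not analysed here.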

Additional observations from a re-analysis of the deposited data

How the results depend on the processing

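The call of CDC26 was kept with the fort or faible columns alone, as deposited, with medians of blocks of features removed, with exact zeros set to missing and with a robust prior; symbols updated through gene identifiers gave the same 59 genes. No member passed (0) in the fit of 4 slides, where CDC26 was at -0.51 (adjusted p = 0.076), or after quantile normalization (-0.43; adjusted p = 0.564). Leaving out a slide and fitting the other 3 with a channel term gave 0 to 1 members and CDC26 means of -0.67 to -0.36. Those fits have 1 residual degree of freedom and called 3 units without slide 19 or 21, 184 without slide 20 and 164 without slide 22. At an unadjusted p under 0.05, limma called 3 members. Reading the columns as already turned gave 38 members and a median of -0.0681; that fit measures what is common to both orientations, 4821 units passing. As deposited, the median was 0.0350. Calls over all units were 81 lower and 36 higher, against 54 and 73 as deposited, 22 and 6 after quantile normalization. The difference between backgrounds passed for 2 members (CDC26 and MCM7) with the faible columns alone, where both had the same SE of 0.143. It passed for 0 with the fort columns or as deposited. Members that changed sign numbered 0 to 16 over these alternatives, 21 for columns read as already turned. With medians of blocks removed they numbered 10, RFA2 among them. Where a cause is not given, it was not tested.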

Other observations

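A further 9 features carried a symbol with one of the roots together with 1 or more other symbols and belong to no comparison above. Their means over the 4 slides lay between -0.14 (the feature of TRM7, ORC2 and KRS1) and 0.10 (the feature of YBR090C, NHP6B and POL30). They add CLB6, an S phase cyclin gene (-0.05, on a feature shared with YGR109W-A), and the condensin gene SMC4 (-0.04, on a feature shared with CSF1), which had no feature of their own name alone.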
